A study of Mus musculus with 10 samples.

Results

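The SERCA pumps and their small inhibitors were followed as 5 genes, Atp2a1, Atp2a2, Atp2a3, Pln and Sln, taken by symbol from the 48397 gene symbols of the count tables. All 5 were found in every library, and all 5 passed the filter on low counts that left 15175 genes for testing. The mice were wild type, had surgery at 2 months of age and gave left atrial RNA 2 weeks later. The TAC group (5 libraries) had the transverse thoracic aorta constricted, which raises the pressure against which the left heart works, and the Sham group (5 libraries) had sham surgery. The series' design text adds that the mice were male and of the C57BL/6J strain, and it gives the tissue as the left appendage and the kit as TruSeq. The sample labels give left atrium and a Nugen low-input kit instead, and which description holds is not known here. Whether every library is a separate animal is not stated. The p-values therefore speak of the spread among these libraries, part of which may be technical.

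SERCA pumps move calcium from the cytosol of a muscle cell back into the sarcoplasmic reticulum after each beat. This relaxes the cell and refills the store for the next release. SERCA2, from Atp2a2, is the pump of heart muscle. SERCA1, from Atp2a1, is the pump of fast skeletal muscle, and SERCA3, from Atp2a3, is found in blood cells, endothelium and other cells outside muscle. Phospholamban, from Pln, is a small membrane protein that lowers the calcium affinity of SERCA2 until it is phosphorylated by protein kinase A or CaMKII. Sarcolipin, from Sln, is a still smaller relative. In the mouse heart it is a gene of the atria rather than the ventricles.

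The coding sequences of both inhibitors are shown because each is short enough to be read whole. They were taken from GENCODE M21 transcripts (GRCm38, plus strand for both genes), 5′ to 3′, with the start and stop codons in capitals. The Pln sequence holds 52 codons before the stop and the Sln sequence 31.
Pln: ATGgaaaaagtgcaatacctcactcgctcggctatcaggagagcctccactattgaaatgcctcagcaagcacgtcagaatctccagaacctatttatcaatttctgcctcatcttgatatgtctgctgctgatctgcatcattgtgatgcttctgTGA
Sln: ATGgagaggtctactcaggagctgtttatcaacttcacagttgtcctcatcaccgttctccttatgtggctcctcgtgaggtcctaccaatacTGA

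Depth ran from 29493200 to 41358617 counts over genes in TAC libraries and from 17117306 to 43956384 in Sham libraries. TAC and Sham libraries lay on opposite sides of the first principal component, which took up 70.2% of the variance. Of 11 cardiomyocyte markers, 10 were lower and 1 (Mybpc3) was higher in TAC, and their summed level ran from 39167 to 53231 CPM in TAC against 84903 to 101667 CPM in Sham. No cardiomyocyte marker was at 0 in any library. The atrial light chain genes Myl7 and Myl4 averaged 2158 and 6409 CPM in TAC and 8888 and 11628 CPM in Sham. The ventricular light chain gene Myl2 lay between 1.82 and 10.1 CPM in TAC and between 0.881 and 218 CPM in Sham, and of 4 tested ventricular markers 2 were higher and 1 lower. Of 8 fibroblast markers 6 were higher and 1 lower (5741 to 13499 CPM summed in TAC, 1987 to 2645 in Sham), and of 8 macrophage markers 7 were higher and 0 lower (759 to 1211 CPM in TAC, 328 to 563 in Sham). Of 8 smooth muscle and pericyte markers 4 were higher and 1 lower, of 3 tested lymphocyte markers 1 was higher, of 5 epicardial markers 1 was higher, and all 4 tested adipocyte markers were lower. At the same threshold, an adjusted p under 0.05, 28.9% of all genes tested were higher, 27.9% lower and 56.8% either. A call of a marker by itself therefore does not set its list apart. The part of these marker differences in the results was not tested. In bulk tissue, fewer cells of a type and less RNA per cell cannot be told apart.

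Pressure overload came with lower transcript levels of the heart's own pump and of both inhibitors, but by unequal amounts. Pln was lower by a factor of 5.40 and Atp2a2 by a factor of 3.95, whereas Sln was lower by a factor of 2.18. The rare Atp2a1 was lower too, and Atp2a3 did not pass the test. In all, 4 of the 5 members were called lower and none higher at an adjusted p under 0.05 (edgeR's quasi-likelihood test). Of all genes tested, 27.9% were called lower and 56.8% were called in either direction, so a call by itself does not set the members apart. For the same 4 members the TAC and Sham libraries did not overlap, which held for 41.7% of all genes in either direction and for 20.2% with TAC below Sham.

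**Figure D1:**
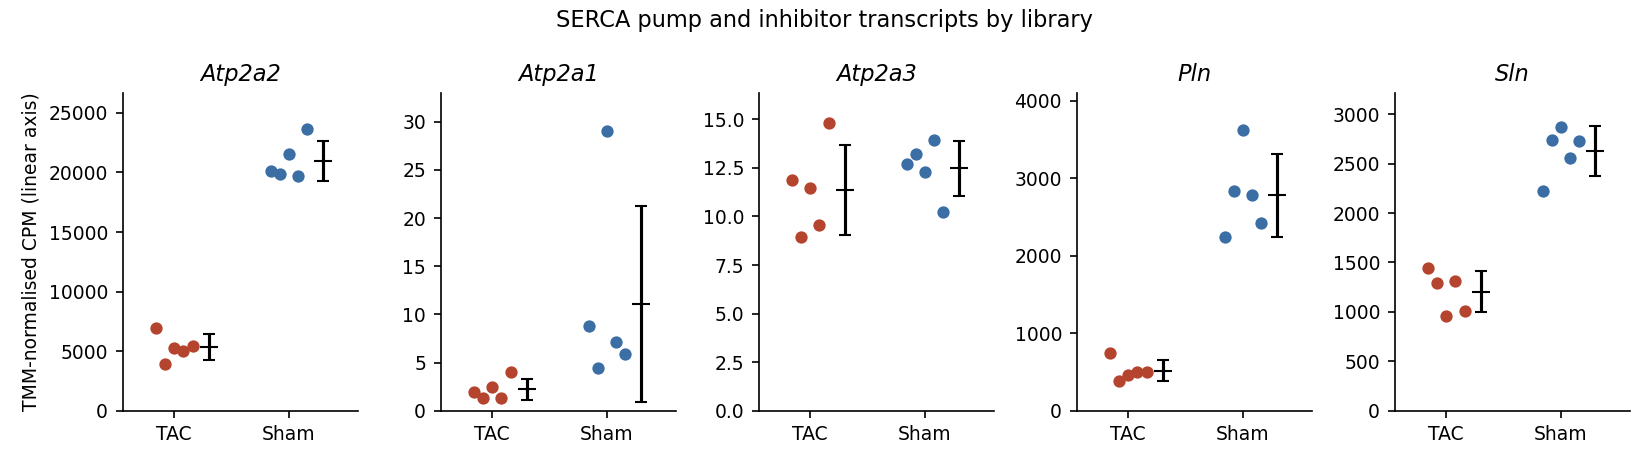
TMM-normalised CPM (counts scaled to the effective library size, linear axes starting at 0) of the 5 genes. Each point is 1 library (5 TAC, 5 Sham), and the bars beside them give the mean and SD. TAC and Sham points are apart for Atp2a2, Atp2a1, Pln and Sln and overlap for Atp2a3, and 1 Sham library stands at 29.1 CPM for Atp2a1.

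Atp2a2 lies at chr5:122453513-122502225 (GRCm38, minus strand). It stood at 6939, 3927, 5301, 4979 and 5417 CPM in TAC replicates 1 to 5, against 20119, 19888, 21524, 19671 and 23669 CPM in Sham replicates 1 to 5. The highest TAC library lay far below the lowest Sham library, and TAC replicate 1 was the highest of its group. The log2 fold change (TAC over Sham) was -1.98 (SE 0.16, edgeR adjusted p = 2.9e-06). Ranked by count, which does not correct for length, Atp2a2 stood between 12 and 21 among all genes in TAC libraries and at 4 in every Sham library, and it held 0.599% ± 0.102 of all counts in TAC and 1.85% ± 0.0729 in Sham (SD, n = 5 each). The gene makes the cardiac form SERCA2a and the general form SERCA2b by splicing, which counts per gene cannot tell apart. Gm43361 lies on the opposite strand within 1.36% of its exonic bases. That gene fell as well, to 0.353 ± 0.217 CPM in TAC against 2.60 ± 0.358 CPM in Sham (SD, n = 5 each). Strand use in counting is not stated, so reads of the pair cannot be told apart.

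Atp2a1 lies at chr7:126445858-126463108 (minus strand). It had few reads, with 86, 52, 84, 46 and 151 counts in TAC replicates 1 to 5 and 142, 70, 957, 275 and 157 counts in Sham replicates 1 to 5. Scaled, it stood at 1.99, 1.30, 2.49, 1.35 and 3.98 CPM in TAC, against 8.82, 4.47, 29.1, 7.09 and 5.89 CPM in Sham. The groups did not overlap, but the highest TAC library and the lowest Sham library were close, and Sham replicate 3 stood far above the other 4. The log2 fold change was -2.33 (SE 0.54, edgeR adjusted p = 0.0034). Without Sham replicate 3 it was -1.57 (adjusted p = 0.0027, where the alternatives together spanned 6.6e-06 to 0.019). The summed level of 12 skeletal muscle markers ran the other way, from 526 to 1312 CPM in TAC and from 246 to 312 CPM in Sham. Most of it came from Myl1 (means of 587 CPM in TAC and 257 in Sham), Tnnt3 (142 and 1.29) and Acta1 (104 and 3.70). Of the 7 tested markers, 5 were higher in TAC and 0 lower, where 28.9% of all genes tested were higher. The fast myosin genes Myh1, Myh2 and Myh4 and the fast troponin C gene Tnnc2 were near the floor. Each was at 0 in at least 1 library and averaged at most 0.541 CPM in either group. Within Sham, replicate 3 had the highest summed level, 312 CPM, of which the myosin light chain gene Myl1 made up 304 CPM (232 to 253 CPM in the other 4 Sham libraries). The skeletal actin gene Acta1 was at 0.912 CPM there, the lowest value among all 10 libraries. Rabep2 shares 21.9% of the exonic bases of Atp2a1 on the opposite strand and rose, with a log2 fold change of 0.35 (SE 0.11, edgeR adjusted p = 0.015).

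Atp2a3 lies at chr11:72961169-72993044 (plus strand) and shares no exonic base with another gene. It stood at 11.9, 8.94, 11.5, 9.57 and 14.8 CPM in TAC replicates 1 to 5, against 12.7, 13.2, 12.3, 13.9 and 10.2 CPM in Sham replicates 1 to 5. The ranges overlapped, and TAC replicate 5 was the highest library of all. The log2 fold change of -0.14 (SE 0.14, edgeR adjusted p = 0.43) did not pass the threshold, and its sign turned when library size alone was used for scaling (0.22 with adjusted p = 0.25, where the alternatives together spanned 0.14 to 0.82). Of the cells in which SERCA3 is known, endothelial cells and platelets had markers called in either direction about as often as genes at large (56.8%). Most of these calls were higher in TAC, where 28.9% of all genes tested were higher and 27.9% lower. The summed levels of these 2 lists overlapped between the groups. Of 8 endothelial markers 4 were higher and 1 lower, and their summed level ran from 1269 to 1911 CPM in TAC and from 1081 to 1675 CPM in Sham. Of 5 tested platelet and megakaryocyte markers 3 were higher and 0 lower, with summed levels of 13.3 to 24.8 CPM in TAC and 13.9 to 17.8 CPM in Sham, and Gp9 and Gp5 were at 0 in at least 1 library. The lists of other blood lineages did not overlap in their sums. Lymphocyte markers summed to 13.2 to 36.8 CPM in TAC and 4.88 to 11.6 CPM in Sham, most of it from Ptprc. Macrophage markers summed to 759 to 1211 CPM in TAC and 328 to 563 CPM in Sham. The part of any of these cells in the level of Atp2a3 was not tested.

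Pln lies at chr10:53337667-53345987 (plus strand). It stood at 748, 380, 457, 493 and 497 CPM in TAC replicates 1 to 5, against 2236, 2835, 3629, 2787 and 2418 CPM in Sham replicates 1 to 5. No TAC library came near the lowest Sham library, and TAC replicate 1 was again the highest of its group. The log2 fold change was -2.43 (SE 0.20, edgeR adjusted p = 2.9e-06). The log2 fold change of Atp2a1, -2.33 with a wider error, was close to it, and the order of the pair turned in some alternatives, such as without TAC replicate 5 (-2.63 for Atp2a1). Pln ranked between 108 and 239 by count in TAC libraries and between 24 and 42 in Sham libraries. Of its exonic bases in GENCODE M21, 64.7% are shared with Cep85l and Gm47644 on the opposite strand. Gm47644 was not among the counted symbols, so the overlap in the authors' gene models may differ. Reads that the authors' counting left as ambiguous took 5.34% to 6.09% of a library in TAC and 3.85% to 4.48% in Sham, and their part in the Pln counts was not tested. Cep85l was at 5.71 ± 0.839 CPM in TAC and 8.66 ± 1.34 CPM in Sham (SD, n = 5 each).

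The stretch before the start of Pln is printed because Pln fell further than Sln, the other inhibitor, from the RefSeq promoter table (GRCm38.p6), plus strand, chr10:53337436-53337666, which ends at the base before the GENCODE start. Capitals mark matches to CCAAT and TATAAA on either strand.
Pln promoter: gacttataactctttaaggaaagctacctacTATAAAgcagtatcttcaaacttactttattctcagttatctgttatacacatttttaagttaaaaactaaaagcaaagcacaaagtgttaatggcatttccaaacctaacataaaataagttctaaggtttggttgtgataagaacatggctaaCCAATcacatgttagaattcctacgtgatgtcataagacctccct
It held 1 CCAAT and 1 TATAAA, motifs found in 32.9% and 12.4% of the same 231-base window of 27025 promoters. It held no GGGCGG, a GC box letter run found in 30.1% of promoters, and no CCGGAAG, an ETS factor letter run found in 5.70%. Its GC content was 32.0%, against a median of 51.95% over all promoters. By the same search the Atp2a1 window held 1 CCAAT and no TATAAA, and the Atp2a3 window held 3 GGGCGG, on either strand and overlapping matches included, and 1 CCGGAAG. These 3 members matched the table, and Atp2a2 and Sln had no entry in it. The Pln window was therefore not compared with one of Sln. A letter match describes the window and does not show a bound site.

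Sln lies at chr9:53850164-53854560 (plus strand), with no exonic base shared with another gene. It stood at 1441, 1297, 962, 1308 and 1013 CPM in TAC replicates 1 to 5, against 2225, 2742, 2873, 2560 and 2731 CPM in Sham replicates 1 to 5. Every TAC library lay below every Sham library, with a narrower gap than for Pln or Atp2a2. The log2 fold change was -1.12 (SE 0.14, edgeR adjusted p = 3.6e-05). Sln ranked between 49 and 68 by count in TAC libraries and between 28 and 36 in Sham libraries.

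Per kilobase of exon, the order of the 5 transcripts by mean differed between the groups, but only within pairs whose ranges overlapped. In TAC, Sln averaged 914 ± 157 and Atp2a2 averaged 874 ± 178 CPM per kilobase (SD, n = 5), and their ranges overlapped, with Sln the higher in 2 of 5 libraries. Pln followed at 187 ± 50.1, Atp2a3 at 2.15 ± 0.437 and Atp2a1 at 0.639 ± 0.317 CPM per kilobase, and in every TAC library each of these stood above the next. In Sham, Atp2a2 led at 3449 ± 275, followed by Sln at 1993 ± 190 and Pln at 1008 ± 194 CPM per kilobase, in that order in all 5 libraries. Atp2a1 (3.18 ± 2.93) and Atp2a3 (2.36 ± 0.267) came last with overlapping ranges, with Atp2a1 the higher in 2 of 5 libraries. These levels depend on the length used. With the longest coding transcript Atp2a2 was above Sln in 4 of 5 TAC libraries. With only the exonic bases that no other gene shares, Pln stood above Sln in all 5 Sham libraries. Atp2a2 made up 99.7% ± 0.0758 of the summed pump level per kilobase in TAC and 99.8% ± 0.0817 in Sham.

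Ratios within a library need no scaling between libraries, and 6 of them were compared. Each was tested by a two-sided exact permutation of the 10 libraries (252 regroupings, which cannot give a p below 0.00794). The amount of inhibitor transcript per pump transcript changed in opposite directions for the 2 inhibitors. Pln per Atp2a2 was lower in TAC, Sln per Atp2a2 was higher, and Sln per Pln was higher.

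Pln per Atp2a2, in counts per kilobase of exon, was 0.237, 0.213, 0.190, 0.218 and 0.202 in TAC replicates 1 to 5, against 0.245, 0.314, 0.372, 0.312 and 0.225 in Sham replicates 1 to 5. The groups overlapped slightly, since TAC replicate 1 lay above Sham replicate 5. The difference in mean log2 ratio was -0.45 (exact permutation p = 0.016, adjusted p = 0.019 over the 6 ratios).

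Sln per Atp2a2 was 0.958, 1.52, 0.837, 1.21 and 0.863 in TAC replicates 1 to 5, against 0.510, 0.636, 0.616, 0.601 and 0.532 in Sham replicates 1 to 5. The groups were apart, and TAC replicates 2 and 4 were highest. The difference in mean log2 ratio was 0.86, a factor of 1.82 (exact permutation p = 0.0079, adjusted p = 0.012).

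Sln per Pln was 4.04, 7.15, 4.40, 5.55 and 4.26 in TAC replicates 1 to 5, against 2.08, 2.02, 1.66, 1.92 and 2.36 in Sham replicates 1 to 5. Again no libraries overlapped, and the log2 difference was 1.31, a factor of 2.48 (exact permutation p = 0.0079, adjusted p = 0.012). Put as a share, Sln made up 83.0% ± 3.15 of the summed inhibitor level per kilobase in TAC and 66.6% ± 2.88 in Sham (SD, n = 5 each).

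**Figure D2:**
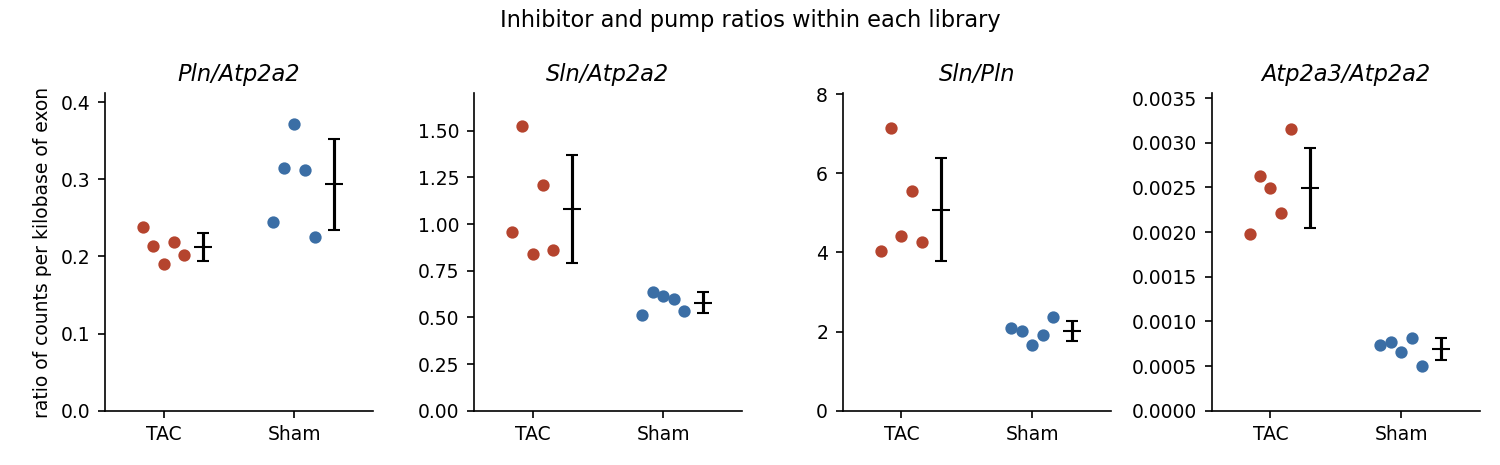
Ratios of counts per kilobase of exon within each library (linear axes starting at 0). Points are the 5 TAC and 5 Sham libraries, and bars give the mean and SD. Pln/Atp2a2 is lower in TAC with a small overlap, and the other 3 ratios are higher in all TAC libraries.

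Both inhibitors summed per Atp2a2 were at 1.29 ± 0.295 in TAC and 0.873 ± 0.109 in Sham (SD, n = 5 each), a log2 difference of 0.55 (exact permutation p = 0.0079, adjusted p = 0.012). This sum depends on the lengths given to Pln and Sln. With only the exonic bases unshared in GENCODE M21 the log2 difference was 0.25 and did not pass (exact permutation p = 0.159, adjusted p = 0.19). With raw counts it was 0.34 (exact permutation p = 0.0794, adjusted p = 0.095). The adjusted p for this sum spanned 0.012 to 0.19 over its alternatives. The ratios of single genes do not change between groups with the length used.

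Among the pumps, Atp2a3 per Atp2a2 was higher in TAC by a log2 difference of 1.85 (exact permutation p = 0.0079, adjusted p = 0.012), at 0.00249 ± 0.000447 in TAC and 0.000694 ± 0.000124 in Sham (SD, n = 5 each). Atp2a3 itself was not called (log2 fold change -0.14) and Atp2a2 was lower (-1.98), so this ratio mainly restates the lower Atp2a2. Atp2a1 per Atp2a2 had a log2 difference of -0.08 (exact permutation p = 0.88, adjusted p = 0.88). Its sign turned without Sham replicate 3 (0.35), without TAC replicate 1 (0.03) and without TAC replicate 4 (0.05).

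Since cardiomyocyte markers were lower as well, each of the 5 members was also set against the summed counts of the 11 markers in the same library, with 1 test per member. Atp2a2 and Pln were lower in TAC on this scale too, and Sln was not called. Atp2a2 counts equalled 13.0%, 9.77%, 12.3%, 11.1% and 13.8% of the marker sum in TAC replicates 1 to 5, against 23.7%, 22.4%, 24.1%, 21.4% and 23.3% in Sham replicates 1 to 5. The groups stood well apart, with a log2 difference of -0.95 (exact permutation p = 0.0079). Pln counts equalled 1.40%, 0.945%, 1.06%, 1.10% and 1.27% of the sum in TAC, against 2.63%, 3.20%, 4.07%, 3.03% and 2.38% in Sham. These groups did not overlap either, and the log2 difference was -1.39 (exact permutation p = 0.0079).

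Sln counts equalled 2.71%, 3.23%, 2.23%, 2.91% and 2.59% of the marker sum in TAC replicates 1 to 5, against 2.62%, 3.09%, 3.22%, 2.78% and 2.69% in Sham replicates 1 to 5. The ranges overlapped almost wholly, with a log2 difference of -0.08 (exact permutation p = 0.48). The choice of marker mattered for Sln. Against Tnnt2 alone, the cardiac troponin T gene, its log2 difference was -0.60 and passed (exact permutation p = 0.0079). Markers fell by different amounts, with log2 fold changes from -2.04 for Myl7 (SE 0.23) to -0.52 for Actc1 (SE 0.13), and Mybpc3 rose (0.65, SE 0.14). Pln had a lower fold change than all 11 markers, and Atp2a2 a lower one than all but Myl7. Atp2a3 was at 0.0261% ± 0.00690 of the sum in TAC and 0.0138% ± 0.00216 in Sham, a log2 difference of 0.90 (exact permutation p = 0.0079), which did not pass against Tnnt2 alone (0.39, exact permutation p = 0.159). The marker sum it was divided by was lower in TAC, while Atp2a3 itself was not called. Atp2a1 had a log2 difference of -1.03 (exact permutation p = 0.095). Against Tnnt2 alone it was -1.54 and without TAC replicate 5 it was -1.31 (exact permutation p = 0.032 for each). Without Sham replicate 3, the library with the most Atp2a1, it shrank to -0.58 (exact permutation p = 0.19).

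**Figure D3:**
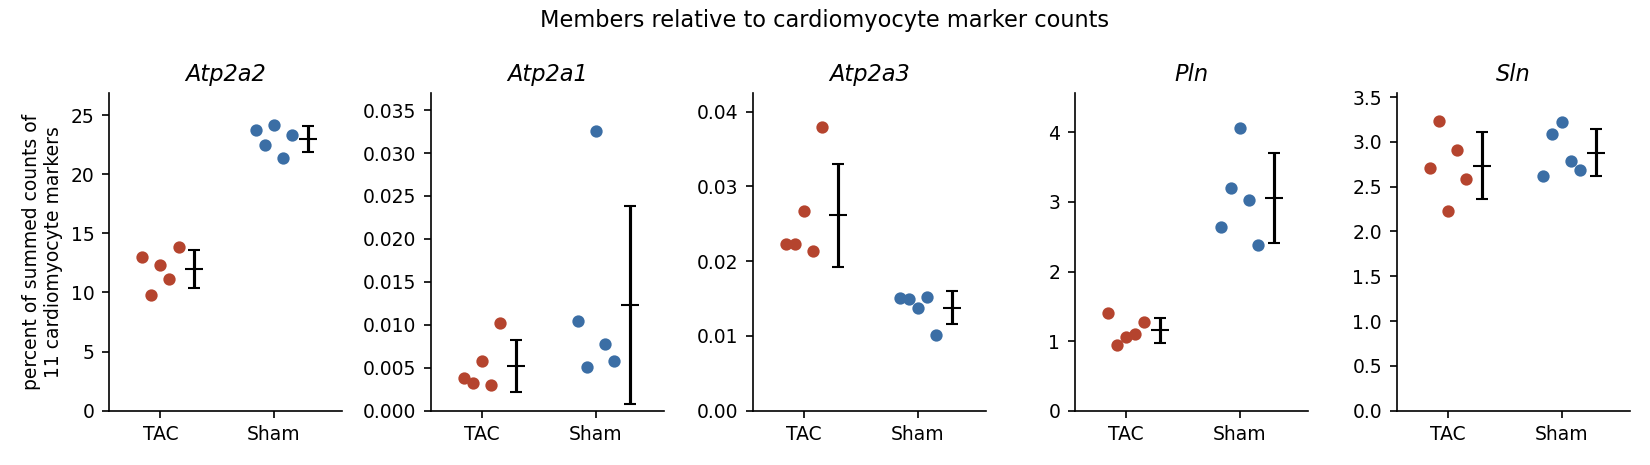
Counts of each member as a percent of the summed counts of 11 cardiomyocyte markers in the same library (linear axes starting at 0). Points are the 5 TAC and 5 Sham libraries, and bars give the mean and SD. Atp2a2 and Pln are lower in all TAC libraries, Atp2a3 is higher in all TAC libraries, and Sln overlaps.

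The genes whose profile over the 10 libraries was closest to a member were found by the root mean square difference of log2 CPM, each gene centred on its own mean. For Atp2a2 these were Hist2h2be (0.138), Gstm7 (0.141) and Slc6a17 (0.143). For Pln they were Stard10 (0.153), Cux2 (0.159) and Ppm1k (0.184). For Sln they were Map1lc3a (0.116), Hdac11 (0.119) and Klhdc1 (0.131). Stard10, as an example, averaged 193 ± 29.5 CPM in TAC and 1020 ± 118 CPM in Sham (SD, n = 5 each), a log2 fold change of -2.40 beside the -2.43 of Pln. For Atp2a3 the closest were Supt7l, Utp15 and Ino80c (0.136 to 0.137). For Atp2a1 they were Mrvi1, Gabbr2 and Pzp, at larger differences of 0.465 to 0.566.

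Genes that regulate the pump or phospholamban were read from 7 lists, of which 57 genes were tested. Of these, 31 were lower and 10 higher in TAC, with a median log2 fold change of -0.34, against 27.9% lower, 28.9% higher and a median of 0.01 over all genes tested. With library size as the only scaling, which moved the median of all genes to 0.37, 15 were lower and 20 higher. Changes are therefore given relative to TMM scaling. The called genes named below kept their sign under every alternative in which they were fitted, and Dio3 and Mrln did not pass the filter of 1 CPM in 5 libraries.

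Of 4 listed genes of other small proteins that bind SERCA, the 2 that were found were near the floor of detection. Arln and Erln were not found under these symbols, so their levels are not known here. Mrln encodes myoregulin, the inhibitor of SERCA1 in skeletal muscle. It fell to 0.393 ± 0.135 CPM in TAC, against 1.35 ± 0.250 CPM in Sham (SD, n = 5 each, log2 fold change -1.76, SE 0.28, edgeR adjusted p = 0.00025). Strit1, which encodes the SERCA activator DWORF and is listed under its synonym Gm34302, had 3 counts in all TAC libraries and 29 in all Sham libraries, most of them in Sham replicate 5, and was not tested.

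Among 12 proteins that bind SERCA or act in the lumen, 6 rose and 3 fell, with a median log2 fold change of 0.23. Hrc, the histidine-rich calcium-binding protein of the sarcoplasmic reticulum lumen, fell to 269 ± 77.4 CPM in TAC, against 1063 ± 61.4 CPM in Sham (SD, n = 5 each, log2 fold change -1.98, SE 0.18), and Thada by 0.45 on the log2 scale (SE 0.09), though not past the threshold with library size alone as scaling (-0.09). Tmx1, a membrane-bound thioredoxin relative of the endoplasmic reticulum, rose by 0.75 (SE 0.09), and Sri, the calcium-binding protein sorcin, rose by 0.67 (SE 0.09). Of 7 calcium storage and junction genes 4 fell and 1 rose (median -0.34). Jph2 (junctophilin 2) fell by 1.17 (SE 0.12) and Tmem38a, a counter-ion channel of the store, fell by 1.03 (SE 0.15), while Casq1, the calsequestrin of fast skeletal muscle, rose by 1.56 (SE 0.35). Casq2, the calsequestrin of the heart, was at 1223 ± 266 CPM in TAC and 1397 ± 66.4 CPM in Sham (edgeR adjusted p = 0.26).

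With TMM scaling, genes that set the phosphorylation of phospholamban were mostly lower, where 27.9% of all genes tested were lower. Of 16 genes of cAMP signalling and its kinases 10 fell and 1 rose (median -0.42), but 3 fell and 2 rose with library size as the only scaling. Akap7, an anchor that holds protein kinase A near phospholamban, fell to 16.8 ± 1.76 CPM in TAC, against 31.7 ± 1.81 CPM in Sham (SD, n = 5 each, log2 fold change -0.91, SE 0.08), and Pde4b, a cAMP phosphodiesterase gene, fell by 1.54 (SE 0.16). Prkar1a, a regulatory subunit of protein kinase A, rose to 1147 ± 133 CPM in TAC, against 552 ± 33.8 CPM in Sham (log2 fold change 1.06, SE 0.10). Of 8 genes of phosphatase control 6 fell and 0 rose (median -0.44), but 3 fell and 2 rose with library size as the only scaling. Ppp1r1a, which encodes an inhibitor of protein phosphatase 1, fell by 1.73 (SE 0.21) and Hspb6, a small heat shock protein gene, by 1.31 (SE 0.15) on the log2 scale.

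Thyroid hormone is a known activator of Atp2a2 transcription and a repressor of Pln. Of 9 genes of its transport, conversion and receptors 5 fell and 2 rose (median -0.50). The risen pair were the deiodinase genes, which act against each other. Dio2, whose enzyme makes the active hormone, stood at 87.3, 61.8, 41.7, 70.4 and 66.5 CPM in TAC replicates 1 to 5, against 4.47, 1.21, 1.22, 3.97 and 1.73 CPM in Sham replicates 1 to 5. All TAC libraries were far above all Sham libraries (log2 fold change 4.70, SE 0.38, edgeR adjusted p = 4e-06). Dio3, whose enzyme inactivates the hormone, rose from few reads, with 231 counts over the TAC libraries and 7 over the Sham libraries (log2 fold change 4.39, SE 0.48). Rxrg, a retinoid X receptor gene, fell by 1.42 on the log2 scale (SE 0.21). Its relative Rxra fell by 0.53 (SE 0.08), though not past the threshold with library size alone as scaling (-0.16).

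Of 4 tested calcium ATPases of other membranes 2 fell and 0 rose (median -0.45). Atp2b4, a plasma membrane pump gene, fell by 1.36 (SE 0.11), and its relative Atp2b2 by 1.05 (SE 0.26).

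**Figure D4:**
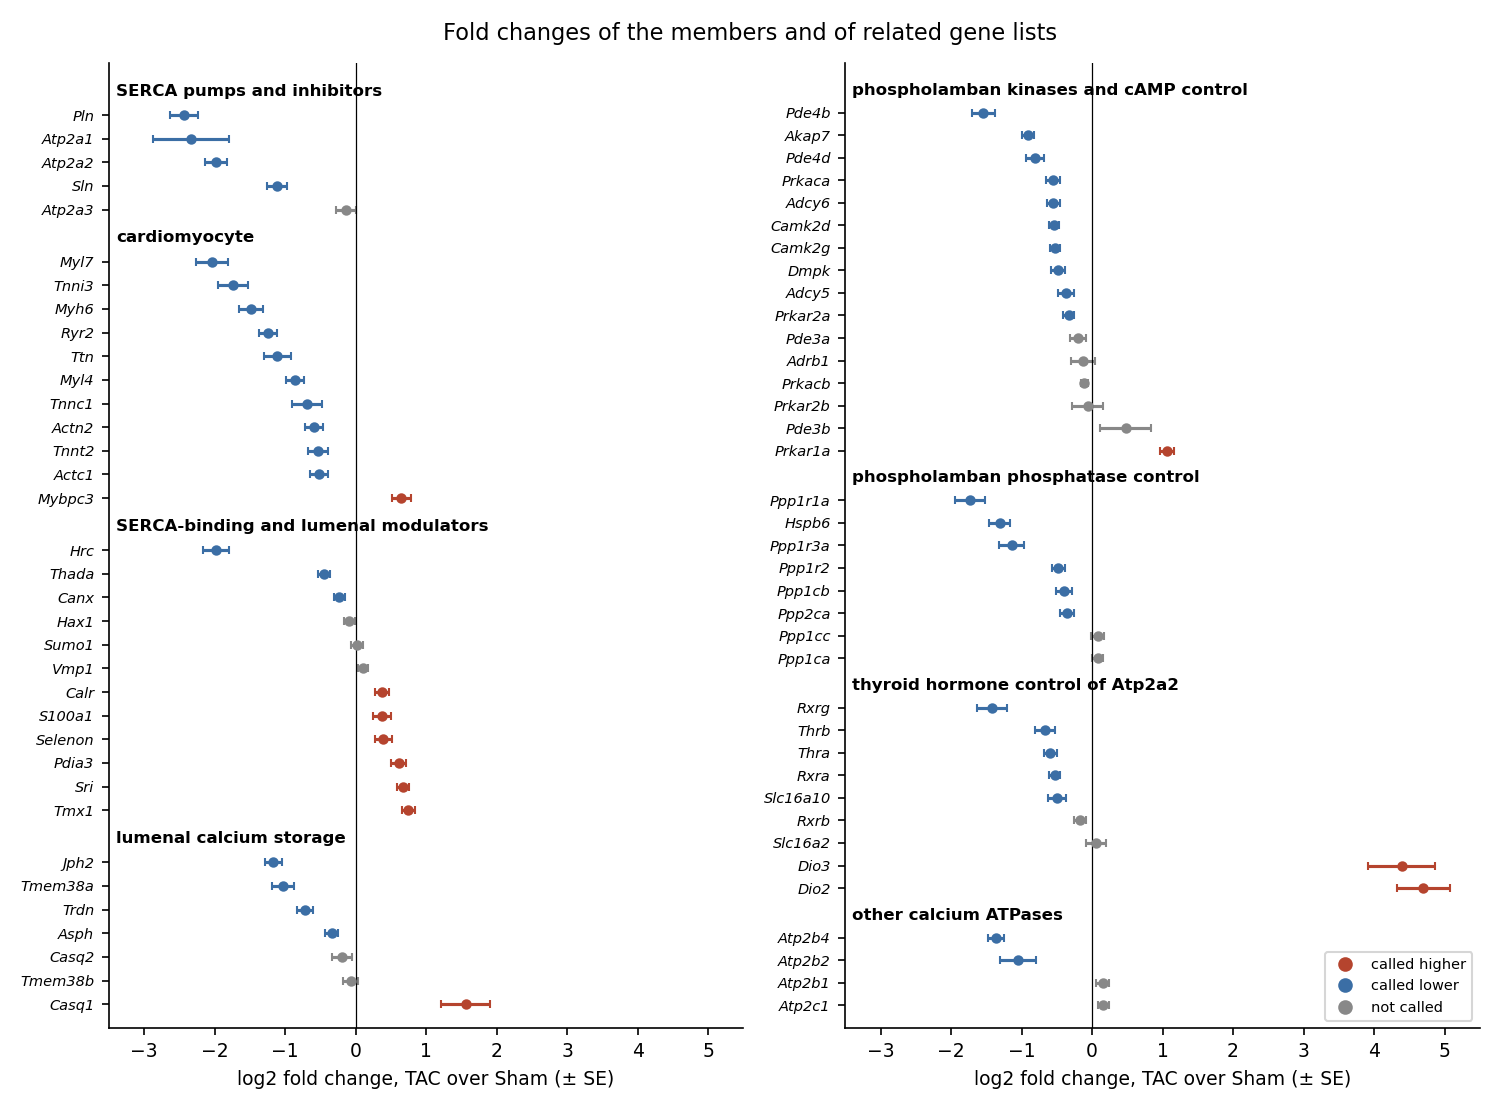
Log2 fold changes (TAC over Sham, with SE) of the members, the cardiomyocyte markers and the tested genes of 6 related lists. Red marks genes called higher, blue genes called lower and grey genes not called. Pln and Atp2a2 sit at the low end beside Myl7 and Hrc, and Dio2 and Dio3 lie at the high end, above 4.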

How the data were processed

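The authors deposited raw counts per gene symbol, 1 table per library, without normalization. STAR, bcl2fastq and the build mm10 are named without versions per the submitters' processing notes, while the counter, strand setting and gene models are not stated. Each table ends with 5 tallies that name no gene, which stayed out of library sizes and tests. Reads in no gene took 2.86% to 4.83% of a library, ambiguous reads 5.34% to 6.09% in TAC and 3.85% to 4.48% in Sham, unaligned reads 3.60% to 5.49% and reads aligned to several places 12.1% to 16.8%. Libraries of 1 group differed by more than sampling noise and each counted as 1 sample.

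The main test was edgeR 4.0.16 in R 4.3.3 (quasi-likelihood F test, TMM factors, filterByExpr at its defaults, robust estimation, group as the only term), with Benjamini-Hochberg adjustment over all 15175 genes and calls at an adjusted p under 0.05. The SE is the log2 fold change divided by the square root of F. CPM is relative to TMM-effective library size. Ratios used counts per kilobase of all exonic bases in GENCODE M21 (GRCm38, which mm10 names), with 0.5 added to each count. Of the files' symbols, 46294 matched 1 gene there. The 6 ratios and 5 marker-relative levels were tested over libraries by exact permutation with scipy 1.17.1. Alternatives were other scalings, filters, DESeq2 1.42.0, limma 3.58.1 voom, a replicate block, other lengths and each library left out.

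The members, 7 pathway lists and 11 marker lists were chosen with earlier results of these data known. Named from each pathway list were up to 2 called genes in each direction by smallest adjusted p. Casq2, Mybpc3, Myl1, Tnnt3 and Acta1 were added after their values were seen. The symbols Arln and Erln were not analysed here. The counting precision of rare genes such as Atp2a1 is limited by totals of 46 to 957 counts per library.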

Additional observations from a re-analysis of the deposited data

Results flagged for a closer look

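Sham replicate 3 stood apart for Atp2a1. It held 29.1 CPM, against 4.47 to 8.82 CPM in the other 4 Sham libraries, and its gap to the nearest of these was 0.824 of the group's range, above the 95% critical value of 0.710 in Dixon's test. The same library held the highest Sham ratio of Atp2a1 to Atp2a2, at 0.00236 (gap 0.811 of the range), and that ratio shares its numerator with the first value. In all, 22 sets of 5 libraries were looked at in this way, and chance flags about 1 in 20. The 12 skeletal muscle markers summed to 312 CPM in that library, the highest of the Sham group, most of it from Myl1 (304 CPM, against 232 to 253 CPM in the other 4 Sham libraries). No other marker of the list stood highest there within Sham. Acta1 (0.912 CPM) and Tnni2 (5.08 CPM) had their lowest value of all 10 libraries in it. The part of skeletal muscle in the Atp2a1 value was not tested.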

How the results depend on the processing

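The fold changes of Atp2a1, Atp2a2, Pln and Sln kept their direction and their call under all 22 alternatives. With library size as the only scaling, 7741 genes were higher and 1929 lower, against 4383 and 4233 with TMM, the pathway lists had 20 higher and 15 lower, and Atp2a3 stood at 0.22. The replicate numbers did not pair the libraries (correlations of same-numbered deviations across genes from -0.036 to 0.080). With the replicate number as a block, 4103 genes were higher and 3917 lower. Sign flips within replicate numbers cannot move a difference of means, and they cannot give a p under 0.0625 (exact). The log2 differences were thus the same by construction. They were -0.45 (Pln/Atp2a2), 0.86 (Sln/Atp2a2), 0.55 (both inhibitors), 1.31 (Sln/Pln) and 1.85 (Atp2a3/Atp2a2), and -0.95 (Atp2a2), 0.90 (Atp2a3) and -1.39 (Pln) per marker. Leaving out both shallow Sham libraries, an alternative added after the data were seen, gave -0.49, 0.85, 0.52, 1.34 and 1.94 for the same ratios and -0.94, 0.99 and -1.43 per marker. With 5 against 3 libraries the smallest exact permutation p is 0.0357, and the adjusted p of these ratios was 0.054 to 0.086. The summed inhibitor ratio was 0.25 with unshared bases and 0.34 with raw counts. Against Tnnt2 alone, Atp2a1 was at -1.54, Atp2a3 at 0.39 and Sln at -0.60. Leaving out 1 library at a time moved Atp2a1/Atp2a2 between -0.31 and 0.35 and Atp2a1 per marker between -1.31 and -0.58.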
